A study of Homo sapiens with 12 samples.

Results

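NRF2 (gene NFE2L2) and the proteins that hold it back, partner it or feed into its control were followed at the mRNA level through 9 genes, all taken by symbol from the deposited tables: NFE2L2, KEAP1, CUL3, BACH1, NFE2L1, SQSTM1 and the small MAF genes MAFG, MAFK and MAFF. They are 9 of 23615 genes listed, and all 9 were among the 16005 with enough reads to test. The cells were HEK293T, a human embryonic kidney line, stably carrying a lentiviral hairpin after puromycin selection. In the shHuR line the hairpin targets ELAVL1, which encodes the RNA-binding protein HuR. The shControl line carries a control hairpin. Each line was left untreated, or given for 18 h either 25 µM of an alkyne form of 4-hydroxynonenal (HNE), an electrophile made by lipid oxidation, or 225 µM hydrogen peroxide (H2O2). Each of these 6 groups had 2 biological replicates, so there were 12 libraries. There is 1 line per hairpin and 1 hairpin against HuR, so the knockdown and any other difference between the 2 lines cannot be told apart.

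NRF2 is a transcription factor that switches on antioxidant and detoxification genes. In resting cells KEAP1 hands it to a ubiquitin ligase built on the scaffold CUL3 and it is degraded. Electrophiles modify cysteines of KEAP1, NRF2 then builds up, pairs with a small MAF protein on DNA and displaces the repressor BACH1. Most of this control acts on protein, which RNA counts do not show. NFE2L1 encodes NRF1, a relative of NRF2 best known for driving proteasome genes, and SQSTM1 encodes an autophagy receptor that binds KEAP1 and is itself an NRF2 target. HuR is known for binding U-rich and AU-rich stretches of 3′ untranslated regions.

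Library totals ran from 24855946 to 29907258 counts. ELAVL1 was lower in shHuR than in shControl cells in every treatment, with log2 differences (log2 fold changes) of -0.33 untreated, -0.42 with HNE and -0.40 with H2O2 (edgeR quasi-likelihood test, adjusted p = 0.0126, 0.00334 and 0.00393). HEK293T-type genes were present, with VIM at 345 to 521 CPM (counts scaled to library size) and CDH2 at 110 to 134 CPM, while the kidney lineage gene PAX2 was nearly absent at 0.144 to 0.491 CPM. Of the markers of other cell types, PTPRC, CD3E, PECAM1, CDH5, ALB and DCN stayed at or below 0.219 CPM in any library and COL1A1 at 2.17 to 4.86 CPM. The HNE-treated shControl replicates differed from each other more than any other pair, with a chi-square per degree of freedom of 21.5 against 2.93 to 10.4 in the other 5 pairs, and results that rest on 1 of them are given without it.

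Because HuR is known for AU-rich sequence, the 3′ untranslated region of the reference transcript of each gene was searched on the transcript's strand for the letters TATTTAT, a core of AU-rich elements. The motif was found in 5 of the 9 genes, NFE2L2, CUL3, MAFG, MAFF and MAFK, and not in KEAP1, BACH1, SQSTM1 or NFE2L1. It was also present in 29.4% of 17595 3′ untranslated regions, and in 13.4% of those about as long as that of NFE2L2 (480 bases), 63.7% of those about as long as that of CUL3 (4095 bases) and 65.3% of those about as long as that of MAFG (4335 bases). The matches in the genes whose levels are compared most closely below are shown with the 10 bases on either side, 5′ to 3′ on the gene's strand, with the motif in capitals. They lie at chr2:177230509-177230535 (NFE2L2), chr2:224472155-224472181 (CUL3), chr17:81921790-81921816 and chr17:81921585-81921611 (the first 2 of 4 in MAFG) and chr7:1542852-1542878 (MAFK), on GRCh38. The genes of NFE2L2, CUL3 and MAFG are on the minus strand and that of MAFK is on the plus strand.
NFE2L2: tacaaaaactTATTTATactgttctta
CUL3: acaggtttgaTATTTATgcttctaaat
MAFG, first: agctgcagagTATTTATaaaactgtct
MAFG, the second: tatcagacatTATTTATaaaacttagt
MAFK: tccatttcatTATTTATtttttgtgct
All 3 small MAF genes held the motif, MAFG 4 times, MAFF 2 times and MAFK 1 time. It was present in 35.9% of regions about as long as that of MAFF (1633 bases) and 51.6% of those about as long as that of MAFK (2668 bases). A match is a string of letters only, and binding was not measured here.

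The antisense strand of the HuR hairpin is shown with bases 2 to 8, the part that can pair with unintended mRNAs, in capitals.
HuR hairpin, antisense: tGCAAACTtcactgtgatggg
The sequence that pairs with those bases, AGTTTGC, occurred in the 3′ untranslated region of BACH1 (1 time) and of none of the other 8 genes, against 10.1% of all 17595 regions and 21% of those about as long as that of BACH1 (3315 bases). BACH1 was not among the genes called between the lines. In promoter windows of 300 bases from RefSeq (GRCh38.p14), searched on both strands for TGACNNNGC, the core of the element that NRF2 and small MAF proteins bind, KEAP1 had 2 matches in 1 of its windows and MAFF had 1, at 122 bases before the start. None was found in the windows of NFE2L2, CUL3, BACH1, MAFG, SQSTM1 or NFE2L1. The letters occurred in 13.3% of 35116 windows.

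On the FPKM scale of the authors, which is per length of gene, SQSTM1 was the most abundant of the 9 at 34.9 ± 5.23 (SD, n = 12 libraries). KEAP1 (27.9 ± 2.57), BACH1 (27.1 ± 1.19) and NFE2L1 (26.6 ± 1.47) followed, with levels that lay within 1 SD of each other. CUL3 was at 15.7 ± 1.28. NFE2L2 itself was at 9.57 ± 1.04 and MAFG at 8.32 ± 1.19, with ranges that overlapped, MAFK was at 5.32 ± 0.706, and MAFF was the least abundant at 1.12 ± 0.326. Among the small MAF genes MAFG lay above MAFK in every library and MAFF lay below both, at 1.30 to 3.68 CPM.

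**Figure D1:**
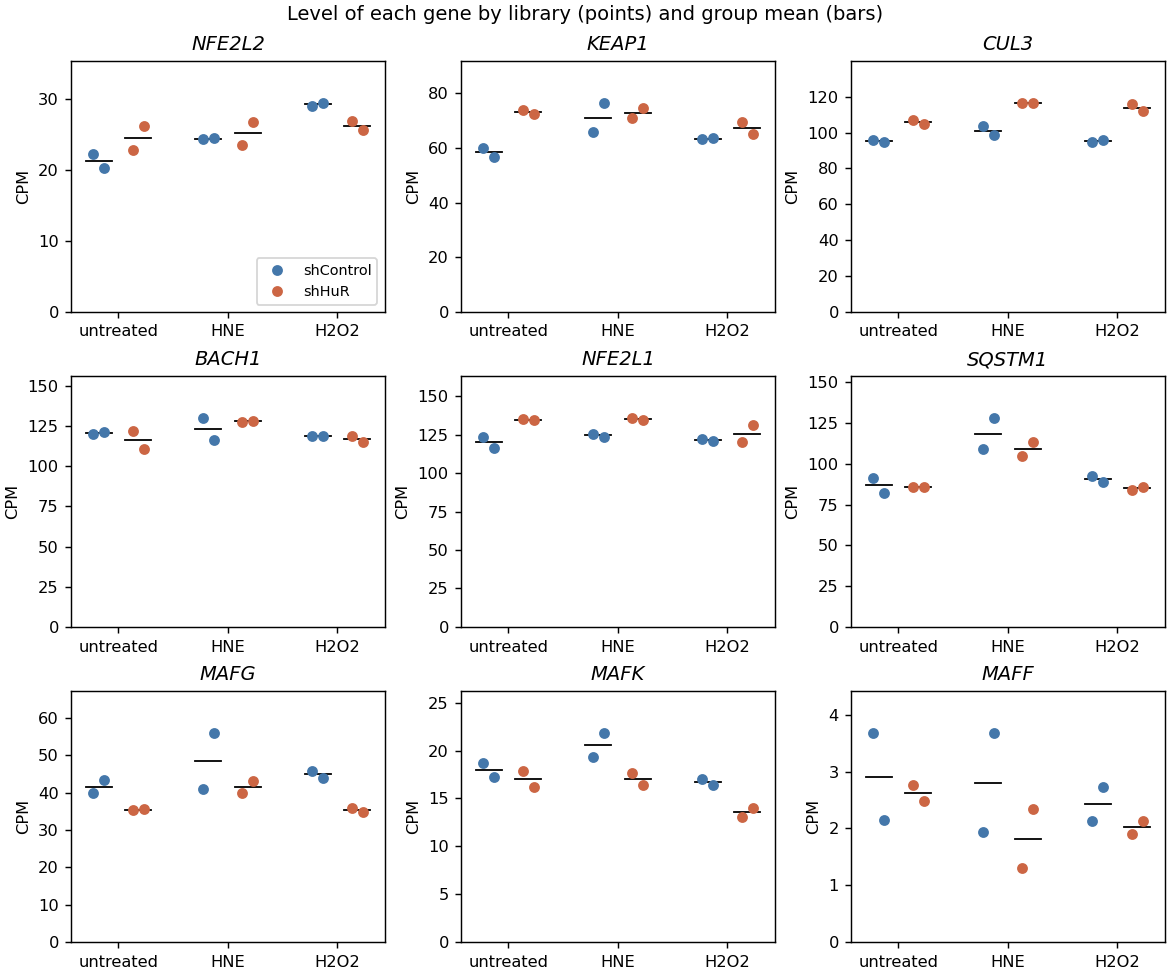
CPM of each of the 9 genes (y axis, from 0) in untreated, HNE-treated and H2O2-treated cells of the shControl (blue) and shHuR (orange) lines, with 1 point per library and a bar at the mean of the 2 replicates. SQSTM1 stands highest with HNE in both lines, CUL3 is higher in all 6 shHuR libraries than in any shControl library, and NFE2L2 is highest in shControl cells given H2O2.

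The average difference between the lines, over all 3 treatments, gave more calls among the 9 genes than any other comparison. CUL3, KEAP1 and NFE2L1 were higher in shHuR cells, and MAFG and MAFK were lower, while NFE2L2, BACH1, SQSTM1 and MAFF did not pass the test. That is 5 of 9 genes called at an adjusted p under 0.05 in edgeR's quasi-likelihood test, with 3 higher and 2 lower. Of all 16005 genes 29.9% were called, 14.1% higher and 15.9% lower, so a call in this comparison was common. The median log2 difference of the 9 was -0.01, beside -0.00 for all genes. These are totals over all cells of a culture, so fewer cells with a transcript and less of it per cell cannot be told apart.

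CUL3, the scaffold of the KEAP1 ligase, was at 95.9 and 94.8 CPM in untreated shControl cells, 103.8 and 98.4 with HNE, and 95.01 and 96.09 with H2O2. In shHuR cells it was at 107.0 and 104.8 CPM untreated, 116.3 and 116.6 with HNE, and 115.9 and 112.0 with H2O2. Every shHuR library was above every shControl library, a separation that 12.1% of all genes showed and that none of the other 8 genes did. The log2 difference was 0.20 (SE 0.0364, adjusted p = 0.000458). That is 1.15-fold. It was called in all 9 other fits and whichever 1 of the 12 libraries was left out.

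MAFG and MAFK encode small MAF proteins, the DNA-binding partners that NRF2, NRF1 and BACH1 all need. MAFG was at 39.8 and 43.5 CPM untreated, 41.0 and 56.0 with HNE, and 45.8 and 44.0 with H2O2 in shControl cells, and at 35.4 and 35.5, 40.0 and 43.1, and 36.0 and 34.8 CPM in shHuR cells. The lines did not overlap in untreated or H2O2-treated cells, like those of 55.9% and 52.1% of all genes, and did overlap with HNE. The average log2 difference of MAFG was -0.27 (SE 0.0644, adjusted p = 0.00491), and it too was called in all 9 other fits and in all 12 with a library left out. MAFK was at 18.7 and 17.2, 19.3 and 21.8, and 17.0 and 16.4 CPM in shControl cells and at 17.9 and 16.2, 17.6 and 16.4, and 13.06 and 14.03 CPM in shHuR cells, in the same order of treatments. Its shHuR libraries lay below the shControl ones with HNE and with H2O2 and overlapped them in untreated cells. With HNE 51.8% of all genes were separated in one direction or the other. The average log2 difference of MAFK was -0.22 (SE 0.0653, adjusted p = 0.0188), with an adjusted p of 0.0576 without replicate 2 of HNE-treated shHuR cells and 0.0566 without replicate 1 of the H2O2-treated ones. MAFF was at 2.72 ± 0.792 CPM in shControl and 2.15 ± 0.512 in shHuR cells (SD, n = 6 libraries over all treatments). It had a log2 difference of -0.34 (SE 0.200, adjusted p = 0.221 by edgeR), so the same direction was not distinguishable from no difference at these counts.

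KEAP1 encodes the substrate adaptor that captures NRF2. It was at 60.1 and 56.8 CPM in untreated shControl cells and at 74.0 and 72.3 CPM in untreated shHuR cells. These groups did not overlap, like those of 55.9% of all genes in one direction or the other. With HNE KEAP1 was at 65.8 and 76.5 against 71.0 and 74.8 CPM, and with H2O2 at 63.2 and 63.5 against 69.4 and 65.2 CPM. The average log2 difference of KEAP1 was 0.15 (SE 0.0536, adjusted p = 0.0451), close to the threshold. It was lost in 2 limma fits (adjusted p = 0.0505 and 0.0767) and when any 1 of 8 libraries was left out (0.0549 to 0.113): the 4 untreated ones, HNE replicate 1 and H2O2 replicate 2 of shControl, and HNE replicate 2 and H2O2 replicate 1 of shHuR. NFE2L1 was at 116.7 to 125.6 CPM in the 6 shControl libraries (median 123) and at 120.1 to 136.0 in the 6 shHuR libraries (median 134.5), with overlap from 1 shHuR library given H2O2. Its log2 difference was 0.11 (SE 0.0383, adjusted p = 0.0365), and it was lost without a filter on low counts (adjusted p = 0.0557) and when any 1 of 7 libraries was left out (adjusted p = 0.0627 to 0.0908), namely the 4 untreated ones, both HNE-treated shHuR libraries and H2O2-treated shHuR replicate 2.

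NFE2L2 was not called between the lines on average, at 25.0 ± 3.68 CPM in shControl and 25.3 ± 1.75 in shHuR cells (SD, n = 6), with a log2 difference of 0.03 (SE 0.0666, adjusted p = 0.782 by edgeR). BACH1, the repressor that competes for the same DNA sites, was at 121.0 ± 4.80 and 120.4 ± 7.02 CPM (SD, n = 6), with a log2 difference of -0.01 (SE 0.0412, adjusted p = 0.902 by edgeR). SQSTM1 was at 98.6 ± 17.0 and 93.3 ± 12.5 CPM (SD, n = 6), with a log2 difference of -0.07 (SE 0.0470, adjusted p = 0.249 by edgeR).

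**Figure D2:**
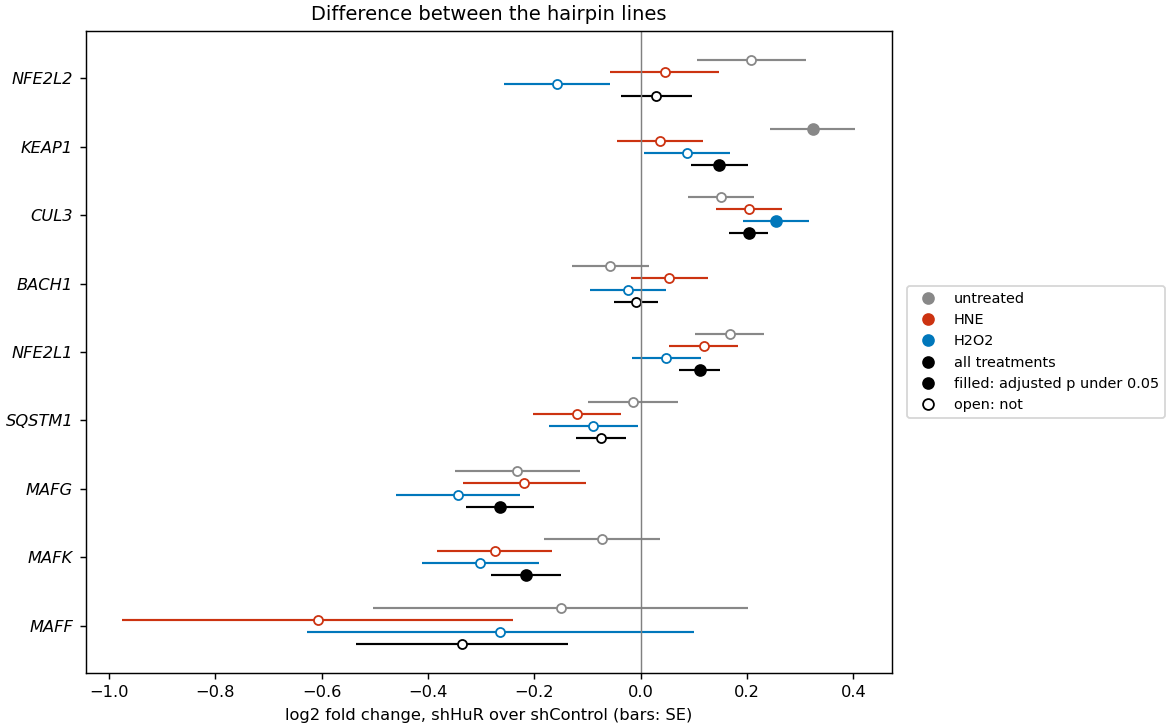
Log2 difference (log2 fold change) of shHuR over shControl (x axis, bars are SE) for each of the 9 genes in untreated (grey), HNE-treated (red) and H2O2-treated (blue) cells and over all treatments (black), with filled points where the adjusted p is under 0.05. CUL3 lies right of 0 and MAFG left of 0 in every row, and filled points outside the average are KEAP1 untreated and CUL3 with H2O2.

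Within single treatments the lines were separated with less replication, and few of the 9 genes were called. In untreated cells KEAP1 alone was called, at 1.25-fold higher in shHuR (log2 difference 0.32, SE 0.0807, adjusted p = 0.0274), which is 1 of 9 beside 7.98% of all genes. Leaving out any 1 of the 4 untreated libraries ended the call (adjusted p = 0.10 to 0.206), with a log2 difference between 0.28 and 0.36, and without HNE-treated shHuR replicate 2 the adjusted p stood at the threshold (0.05). CUL3 (0.15, SE 0.0620), NFE2L1 (0.17, SE 0.0651) and NFE2L2 (0.21, SE 0.102) had positive untreated log2 differences and MAFG (-0.23, SE 0.118) and MAFK (-0.07, SE 0.109) negative ones, none of which passed the adjusted threshold. For NFE2L2 both shHuR libraries (22.8 and 26.2 CPM) lay above both shControl libraries (22.2 and 20.3 CPM), as the groups of 55.9% of all genes separated in one direction or the other.

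With HNE 0 of 9 genes were called by edgeR, beside 8.27% of all genes, with 2 of 9 at an unadjusted p under 0.05 (23.9% of all genes). DESeq2 called 1 of 9 (CUL3, adjusted p = 0.0488). The 9 other fits, DESeq2 among them, called 717 to 2061 of all genes. CUL3 had a log2 difference of 0.20 (SE 0.0619, adjusted p = 0.0583 by edgeR), which ran from 0.164 to 0.254 with 1 library left out. MAFK had one of -0.28 (SE 0.108, adjusted p = 0.138 by edgeR). KEAP1 and NFE2L2 both stood at 0.04 (SE 0.0803 and 0.102) and NFE2L1 at 0.12 (SE 0.0651). The MAFG difference with HNE depended on the divergent shControl pair. Its log2 difference was -0.22 (SE 0.116), 0.02 without shControl replicate 2 and -0.42 without shControl replicate 1.

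With H2O2, CUL3 alone was called, 1 of 9 beside 7.19% of all genes, at a log2 difference of 0.25 (SE 0.0619, adjusted p = 0.0242). Leaving out any 1 of the 4 H2O2 libraries gave adjusted p = 0.0614 to 0.194, and leaving out HNE-treated shHuR replicate 1 or 2 gave 0.0525 or 0.0528. MAFG was at -0.34 (SE 0.117, adjusted p = 0.094 by edgeR), and ran from -0.37 to -0.31 with 1 library left out. MAFK was at -0.30 (SE 0.110), KEAP1 at 0.09 (SE 0.0806), NFE2L1 at 0.05 (SE 0.0651) and NFE2L2 at -0.16 (SE 0.10), none past the threshold.

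SQSTM1 rose with HNE when the lines were averaged, and no other gene of the 9 passed that test. The HNE and H2O2 comparisons below share their untreated libraries. SQSTM1 was at 91.4 and 82.0 CPM in untreated and at 109.0 and 128.1 CPM in HNE-treated shControl cells. In shHuR cells it went from 86.0 and 85.6 to 104.6 and 113.4 CPM. All 4 HNE libraries lay above all 4 untreated ones, as did those of 4.58% of all genes in one direction or the other. Averaged over lines the log2 difference was 0.40 (SE 0.0651, edgeR adjusted p = 0.0270), or 1.32-fold, which is 1 of 9 genes beside 0.247% of 15780 genes called. The call was lost with limma on FPKM (adjusted p = 0.101 to 0.197) and when any 1 of 6 libraries was left out (0.0625 to 0.163), namely each untreated library and each HNE-treated shHuR library, with log2 differences from 0.36 to 0.43.

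Within one line alone SQSTM1 had a log2 difference of 0.45 (SE 0.084, edgeR adjusted p = 0.13) in shControl, where 0 of 9 genes were called beside 0.0187% of all genes, and 0.34 (SE 0.0842, edgeR adjusted p = 0.165) in shHuR, where 0 of 9 were called beside 0.075%. In each of these 2 lines 2 of 9 genes were under an unadjusted p of 0.05 by edgeR, beside 11.7% of all genes in shControl and 8.95% in shHuR. DESeq2 called 1 of 9 in each, SQSTM1 (adjusted p = 0.00183 and 0.0302). The 9 other fits, DESeq2 among them, called 2 to 329 of all genes in shControl and 2 to 198 in shHuR. With 1 library left out, the shControl value for SQSTM1 ran from 0.33 to 0.56, the highest without shControl HNE replicate 1.

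KEAP1 was higher with HNE than without it in shControl cells in both replicates of each group, as 39.6% of all genes were separated there. Its log2 difference there was 0.28 (SE 0.0808, edgeR adjusted p = 0.240), and ran from 0.175 to 0.381 with 1 library left out. In shHuR cells KEAP1 was at -0.00 (SE 0.0803). Averaged over lines KEAP1 was at 0.14 (SE 0.0722) and NFE2L2 at 0.12 (SE 0.0797), neither past the threshold. MAFG was at 0.22 (SE 0.116) in shControl and 0.23 (SE 0.118) in shHuR cells. The shControl value of MAFG was -0.02 without HNE replicate 2 and 0.42 without HNE replicate 1. CUL3 had an average of 0.11 (SE 0.0494, edgeR adjusted p = 0.378). NFE2L2 was at 24.4 and 24.5 CPM with HNE in shControl cells against 22.2 and 20.3 untreated, a log2 difference of 0.20 (SE 0.102), and at 0.04 (SE 0.102) in shHuR cells.

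H2O2 called none of the 9 genes, as it called 0% of genes in either line or on average. By edgeR 1 of 9 was under an unadjusted p of 0.05 in shControl (NFE2L2), 1 of 9 in shHuR (MAFK) and 2 of 9 on average, and DESeq2 called 0 of 9 in each. Across all genes 695 (4.34%), 540 (3.37%) and 861 (5.45%) were under an unadjusted p of 0.05, and DESeq2 called 2, 3 and 3. NFE2L2 had the highest log2 difference of the 9 with H2O2 in shControl cells. It was at 29.1 and 29.5 CPM in those treated cells, above its level in every other library, against 22.2 and 20.3 CPM untreated, where 32.5% of all genes were separated. Its log2 difference was 0.46 (SE 0.102, unadjusted p = 0.000456, adjusted p = 0.998 by edgeR), and it was called only when no filter on low counts was used (adjusted p = 0.0243). In shHuR cells NFE2L2 went from 22.8 and 26.2 to 26.9 and 25.6 CPM, overlapping, with a log2 difference of 0.10 (SE 0.101). The average was 0.28 (SE 0.0841, unadjusted p = 0.00475, adjusted p = 0.900 by edgeR). MAFK was at -0.33 (SE 0.110) in shHuR and -0.10 (SE 0.109) in shControl cells, an average of -0.21 (SE 0.0817).

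**Figure D3:**
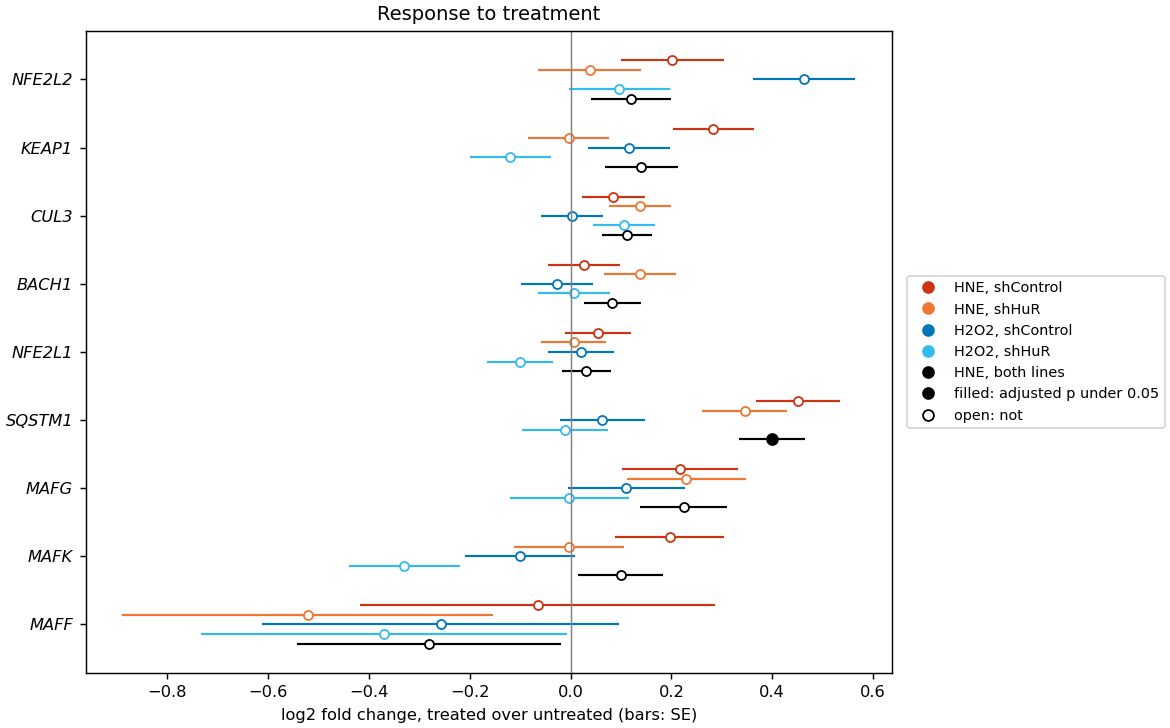
Log2 difference (log2 fold change) over untreated cells (x axis, bars are SE) of each of the 9 genes for HNE and H2O2 in each line, and for HNE averaged over lines, with filled points where the adjusted p is under 0.05. SQSTM1 has the only filled point, for HNE averaged over lines, and NFE2L2 in shControl cells given H2O2 has the open value farthest to the right, 0.46.

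Whether the lines differed in their responses was tested directly as an interaction. No gene of the 9 was called for HNE or H2O2, and 0% of all genes were, with 1 of 9 at an unadjusted p under 0.05 in each by edgeR (6.73% and 3.62% of all genes) and 0 of 9 called by DESeq2. For HNE the shHuR response minus the shControl response was -0.29 (SE 0.114, unadjusted p = 0.0248) for KEAP1, -0.16 (SE 0.144) for NFE2L2 and -0.11 (SE 0.119) for SQSTM1 on the log2 scale. For H2O2 it was -0.37 (SE 0.143, unadjusted p = 0.0231) for NFE2L2, -0.24 (SE 0.114) for KEAP1 and -0.23 (SE 0.155) for MAFK. All adjusted p-values for these were 0.712 or more, so the lines were not shown to respond differently.

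SQSTM1 also separated the 2 treatments directly. Over both lines it was 0.37 log2 units higher with HNE than with H2O2 (SE 0.0579, edgeR adjusted p = 0.0315), where its libraries were 104.6 to 128.1 CPM against 84.2 to 92.4 CPM, a separation seen for 5.21% of all genes. That was 1 of 9 genes beside 0.114% of 15769 called. The call was lost with limma (adjusted p = 0.0802 to 0.163) and without any 1 of 6 libraries, namely the 4 H2O2 libraries and both HNE-treated shHuR libraries (0.0548 to 0.238). MAFK (0.31, SE 0.0778, edgeR adjusted p = 0.110) was called by DESeq2 (0.0489) and without a filter on low counts (0.0441) only. The 9 other fits, these 2 among them, called 2 to 668 of all genes. KEAP1 was at 0.14 (SE 0.0583) and NFE2L2 at -0.16 (SE 0.0731).

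Among genes known as NRF2 targets, averaged over lines, 9 of 32 tested rose with HNE and 0 fell (edgeR, adjusted p under 0.05), beside 0.247% of all genes called in either direction, with a median log2 difference of 0.15 beside 0.00 for all genes tested. HMOX1, which breaks down heme, rose by 1.44 (SE 0.0961), FTL, the ferritin light chain, by 0.81 (SE 0.0659), and the thioredoxin reductase gene TXNRD1 by 0.62 (SE 0.0664). PIR (0.76, partly fractional counts), ME1 (0.58), NQO1 (0.69) and GCLM (0.36) were among the other 6. GCLC (0.09, SE 0.0892), SRXN1 (0.24, SE 0.0685) and SLC7A11 (0.22, SE 0.0593) did not pass. The count of targets called was 1 to 13 in other fits, lowest with limma, and 3 to 9 when 1 library was left out. With H2O2, 0 of 31 targets were called. HMOX1 was at 0.01 (SE 0.0985), NQO1 at 0.11 (SE 0.12) and SLC7A11 at 0.26 (SE 0.0493). GCLM was at 0.15 (SE 0.0536), TXNRD1 at 0.04 (SE 0.0463), SRXN1 at 0.03 (SE 0.0589) and GCLC at -0.02 (SE 0.0624). Of 11268 genes searched, FAF1 (Pearson r = 0.955), IL10RB (0.926) and HMOX1 (0.926) ran most like SQSTM1 in level over the 12 libraries. These are the highest of many values over libraries that share line and treatment, and they are a description only.

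Between the lines, over all treatments, 5 of 32 of the same targets were higher in shHuR and 4 lower, beside 14.1% and 15.9% of all genes, so the number called is near the background and is no result about these targets. NQO1 (0.51, SE 0.0885), CBR1 (0.36, SE 0.0513) and EPHX1 (0.39, SE 0.0622) rose and MGST1 (-1.16, SE 0.129) and SLC7A11 (-0.22, SE 0.0426) fell. Of 13 genes for NRF2 turnover (other ubiquitin ligase parts and the kinases that mark NRF2), 4 were higher and 1 lower, beside the same 14.1% and 15.9% of all genes. BTRC, the substrate adaptor of another ligase that takes NRF2, was higher (0.38, SE 0.0474) and CAND1, which exchanges cullin adaptors, was lower (-0.38, SE 0.0417), and each passed the test in all 3 treatments as well. The GSK3 kinase genes GSK3A (0.35, SE 0.0731) and GSK3B (0.17, SE 0.0456) were also higher. So was the cullin modifier NEDD8 (0.18, SE 0.0504, partly fractional counts).

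Proteasome subunits, the genes NRF1 is known to drive, had 13 of 31 higher in shHuR and 0 lower, beside 14.1% and 15.9% of all genes, with a median of 0.12 beside -0.00 for all genes. PSMD12 (0.30, SE 0.0464), PSMD11 (0.23, SE 0.0370) and PSMD8 (0.25, SE 0.0477) were among them. The count ranged from 9 to 20 over other fits and over leaving out 1 library. A positive shift was not particular to the line difference, where 30 of 31 were positive. With HNE, averaged over lines, 31 of 31 were positive, with a median of 0.117 beside 0 for all genes, and 0 were called. Between the lines, of 7 genes for NRF1 processing, DDI2, a protease that cuts NRF1, was higher (0.31, partly fractional counts). NGLY1 (-0.17), SEL1L (-0.19) and OGT (-0.19) were lower there. The lists that follow are small, and 29.9% of all genes were called in the same comparison. Among KEAP1-binding proteins 1 of 8 was higher (PGAM5, 0.22) and 2 lower (MCM3, -0.23, and IKBKB, -0.16). Of the relatives of NRF2 and the large MAF genes, MAF (-0.35) and MAFA (-0.85) were lower. Of 11 autophagy genes that work with SQSTM1 only GABARAPL1 was lower (-0.30), and none of 8 NRF2 co-regulators was called in any of the 13 comparisons. FBXL17, one of the ligase genes that act on BACH1, was lower in shHuR cells given HNE (-0.45, SE 0.131, edgeR adjusted p = 0.0469), and neither of the 2 was called over all treatments.

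**Figure D4:**
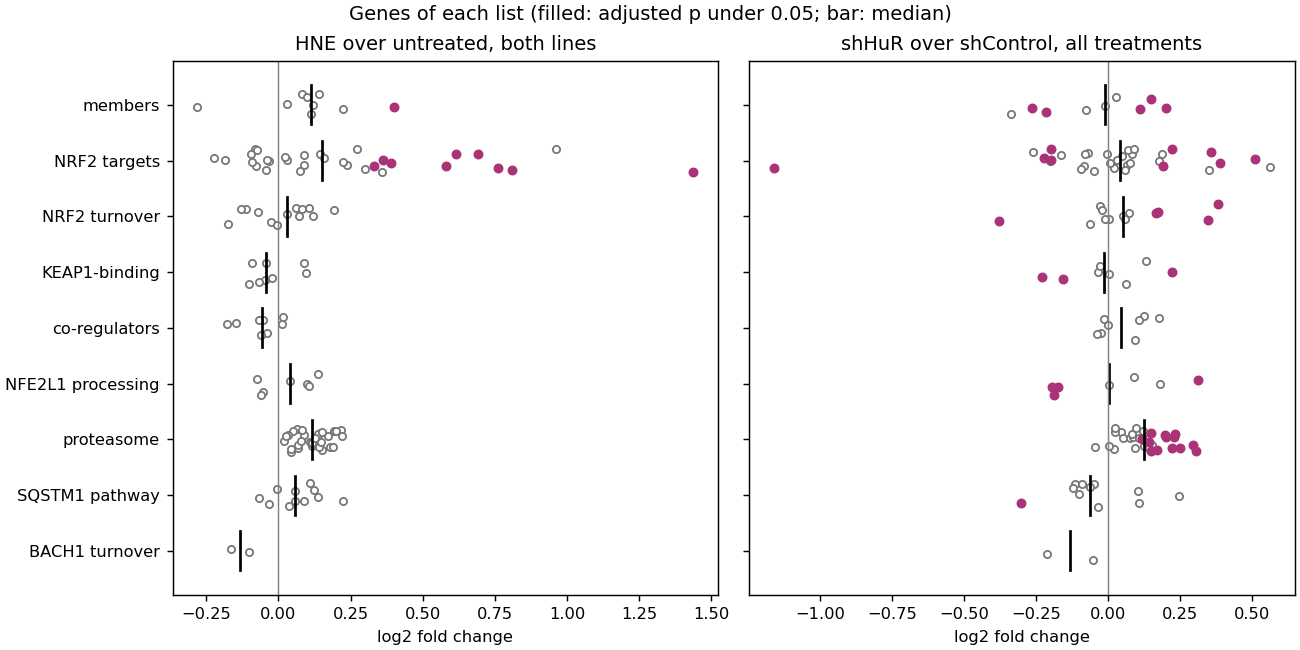
Log2 difference (log2 fold change) (x axis) of the genes of each list shown, with 1 point per gene, filled where the adjusted p is under 0.05 and a bar at the median, for HNE over untreated cells (left, both lines) and shHuR over shControl cells (right, all treatments). Filled points at left are mostly NRF2 targets, up to 1.44 for HMOX1. The proteasome row lies right of 0 at left, with no filled point, and almost wholly right of 0 at right.

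Among 11268 genes with a mean of at least 5 CPM, those whose log2 level over the 12 libraries ran most like CUL3 were MOB1A (Pearson r = 0.972), DNAJB11 (0.962) and PSMD11 (0.959). For KEAP1 they were FARSA (0.945), SURF4 (0.932) and C19orf24 (0.930). For NFE2L2 they were BTBD9 (0.906), PRKCA (0.897) and CCRN4L (0.867). For MAFG they were SNX25 (0.928), AJUBA (0.919) and TSPAN5 (0.911), for MAFK LZTS2 (0.967), P4HA2 (0.942) and EME2 (0.941), and for NFE2L1 MBD4 (0.909), ZNF2 (0.909) and JOSD2 (0.898). These are the highest of many values over libraries that share line and treatment, and they are a description only.

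The genes lie at chr2:177227595-177392697 (NFE2L2), chr19:10486120-10503741 (KEAP1), chr2:224470150-224585397 (CUL3), chr21:29194071-29630751 (BACH1), chr17:48048329-48061487 (NFE2L1), chr5:179806398-179838078 (SQSTM1), chr17:81918270-81927714 (MAFG), chr7:1530714-1543043 (MAFK) and chr22:38200767-38216511 (MAFF) in the reference annotation on GRCh38. That annotation places a gene on the opposite strand over part of NFE2L2 (AGPS), BACH1 (GRIK1), MAFF (PLA2G6), MAFK (TMEM184A) and SQSTM1 (MGAT4B), and on the same strand SIRT7 over part of MAFG, LINC00189 over part of BACH1 and MIR3128 within NFE2L2. Whether counting used strand is not given in the sources used here, so reads of such partners cannot be told apart from those of these 6 genes. Only overlapping genes whose symbol is in the deposited tables were kept, and among those KEAP1, CUL3 and NFE2L1 have no such partner. No count of the 9 genes was fractional.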

How the data were processed

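RNA from 12 HEK293T cultures was depleted of ribosomal RNA and made into directional libraries read as single-end 75-base reads, per the labels' protocols. The submitters' processing notes name cutadapt 1.8, Bowtie2 2.2, TopHat2 2.1, Cufflinks 2.2, Cuffnorm and Cuffdiff, with GRCh37. The annotation and the use of strand in counting are not given in the sources used here. The authors deposited estimated counts by gene symbol (2.25% of values are fractional, in 701 genes) and FPKM values, which are scaled by gene length and library. Counts had been foreseen in the design, so the estimated counts were rounded to whole numbers before testing.

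Genes were filtered with edgeR 4.0.16 (filterByExpr, minimum count 10), scaled with TMM (0.965 to 1.029) and tested with the quasi-likelihood F-test in R 4.3.3, with Benjamini-Hochberg adjustment over all genes tested and a threshold of 0.05. Comparisons within a treatment or line used 6 group means (6 residual degrees of freedom). For the average line difference treatment was a covariate over all 12 libraries, and for each average treatment difference line was a covariate over 8 libraries. CPM was computed from the scaled library sizes, errors are SD over libraries, and the SE of a log2 fold change is its size over the square root of F. The biological coefficient of variation was 8.32%. Total counts of 24855946 to 29907258 per library set the precision, which is lowest for MAFF.

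Alternatives were DESeq2 1.42.0 (Wald test), median-ratio size factors, library size alone, no filter, a filter at mean CPM 1, a block for replicate number, limma 3.58.1 (trend) on log2(FPKM + 1) or log2(FPKM + 0.1) with a filter at mean FPKM 1, log2(FPKM + 1) unfiltered, and leaving out each library. Counts of called list genes under these settings were added after seeing the data. On that scale limma's log2 differences are of FPKM plus the pseudocount, so changes of low genes come out too small. The labels name no batch. The fits were tested on simulated data. Replicate numbers did not pair the samples: of 15 correlations between groups of same-numbered deviations 2 were over 0.1 and the median was -0.01.

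The 9 genes, the gene lists and the rule for named genes (every list gene with an adjusted p under 0.05, at most 6 per comparison, plus 7 NRF2 targets in treatment comparisons and the 3 genes most alike in level) were chosen with earlier results of these data known. NFE2, ABCC3, AKR1B10, AKR1C1, AKR1C2 and AKR1C3 were not tested because of low counts, and 1 gene of the lists is not reported here. Coordinates, transcripts and 3′ untranslated regions are from GENCODE 29 and promoter windows from RefSeq, which held 8 of the 9 genes, all on GRCh38 and not on the authors' build.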

Additional observations from a re-analysis of the deposited data

How the results depend on the processing

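The log2 differences followed here, also those with a library left out below, are a chosen part of those of the 9 genes over the 13 comparisons. Each was set against each of the 9 other fits, and the counts that follow are of pairs of a log2 difference and a fit. Leaving out a library aside, 480 such pairs kept their direction and their side of the threshold. Another 11 moved past it and 12 fell short of it. The 1 that reversed was BACH1 between lines over all treatments (0.013 with library size alone). Where a cause is not named it was not tested.

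The number of the 9 genes called moved as follows. Between lines it was 0 untreated (limma, no filter), 1 with HNE (DESeq2, mean CPM of at least 1, limma on log2(FPKM + 1)) and 2 with H2O2 (no filter). HNE against untreated gave 1 in either line (DESeq2, no filter) and 0 over both lines (replicate block, 3 limma fits). H2O2 in shControl gave 1 (no filter). HNE against H2O2 gave 2 (DESeq2, no filter) and 0 (3 limma fits).

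The number of all genes called without a filter on low counts was 1949 (untreated), 2061 (HNE) and 1802 (H2O2) between lines, 329 (shControl), 198 (shHuR) and 334 (both) for HNE, 91, 33 and 117 for H2O2, 103 and 36 for the HNE and H2O2 interactions, and 668 for HNE against H2O2. DESeq2 gave 71, 107 and 182 for HNE, 2, 3 and 3 for H2O2, 5 and 3 for the interactions, and 322 for HNE against H2O2. Limma on log2(FPKM + 1) without a filter gave 726, 717 and 675 between lines, 2 (shHuR) and 1 (both) for HNE, 3, 2 and 1 for H2O2, 2 and 2 for the interactions, and 2 for HNE against H2O2. With the filter it gave 6 (shHuR) and 2 (both) for HNE, 3, 2 and 2 for H2O2, 3 and 3 for the interactions, and 5 for HNE against H2O2. Limma on log2(FPKM + 0.1) gave 4 for HNE (both), 5, 2 and 2 for H2O2, 1 for the HNE interaction, and 6 for HNE against H2O2. For HNE in shHuR library size alone gave 7. For HNE against H2O2 median-ratio size factors gave 29 and a mean CPM of at least 1 gave 30.

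The replicate block gave 6 genes for HNE in shHuR, 14 for HNE over both lines and 10 for HNE against H2O2. Among the 9 genes it ended the calls of SQSTM1 for HNE over both lines (adjusted p = 0.0509) and KEAP1 between lines over all treatments (0.0547), and no other call of theirs.

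Leaving out 1 library, the 9 genes called ranged between lines from 0 to 1 (untreated), 0 to 2 (HNE), 0 to 2 (H2O2) and 2 to 5 (all treatments), and from 0 to 3 (shControl), 0 to 1 (shHuR) and 0 to 1 (both) for HNE and 0 to 1 for HNE against H2O2. All genes called ranged between lines from 242 to 2055 (untreated), 164 to 1890 (HNE) and 290 to 1845 (H2O2), from 0 to 859 (shControl), 3 to 62 (shHuR) and 3 to 168 (both) for HNE, 0 to 4, 0 to 2 and 0 to 1 for H2O2, 0 to 87 and 0 to 3 for the interactions, and 5 to 267 for HNE against H2O2. Log2 differences that reversed ranged between lines with HNE from -0.058 to 0.148 (KEAP1), -0.054 to 0.138 (NFE2L2) and -0.418 to 0.020 (MAFG), with H2O2 from -0.018 to 0.111 (NFE2L1), and over all treatments from -0.018 to 0.064 (NFE2L2) and -0.034 to 0.015 (BACH1). For HNE they ranged from -0.018 to 0.419 (MAFG, shControl), -0.042 to 0.034 (KEAP1, shHuR) and -0.061 to 0.143 (NFE2L2, shHuR), for H2O2 from -0.001 to 0.202 (NFE2L2, shHuR), and for the HNE interaction of SQSTM1 from -0.209 to 0.013.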
